A study of Campylomormyrus compressirostris and Campylomormyrus rhynchophorus and Campylomormyrus compressirostris x Campylomormyrus rhynchophorus with 15 samples.

Results

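*CLDN11* and *LSR*, a pair of genes for proteins of the tight junction, were followed in the electric organ of 15 juvenile weakly electric fish of the genus *Campylomormyrus*. Both were taken by the identifiers under which the study names them, maker-ptg001737l-snap-gene-0.24 for *CLDN11* and snap_masked-ptg000253l-processed-gene-17.8 for *LSR*, and they are 2 of the 34492 gene models in the files. RNA was sequenced from 5 F1 hybrids of a male *C. compressirostris* and a female *C. rhynchophorus* (comrhy59 to comrhy63), 5 *C. rhynchophorus* (*rhy*, rhy49 to rhy53) and 5 *C. compressirostris* (*com*, named com104, com121, com123, com124 and com125). The labels give every fish a length of 6 cm and name no treatment, age or batch, and each library comes from 1 fish. The study describes a short electric organ discharge (EOD) in juvenile hybrids and juvenile *com*, and a longer one in juvenile *rhy*. The labels do not say which fish of a group, hybrid or parental, share parents. Fish of a group may thus be siblings, and p-values measure the spread between these fish.

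Tight junctions seal the space between neighbouring cells and hold back ions and solutes that would otherwise pass between them. Claudins are membrane proteins that polymerise into the strands of the junction. Claudin-11, the product of *CLDN11*, is known in mice from central myelin, from the Sertoli cells of the testis and from the basal cells of the inner ear's stria vascularis, where its strands insulate one compartment from another. The lipolysis-stimulated lipoprotein receptor, the product of *LSR*, is known in mammals for taking up lipoproteins and as angulin-1, which marks tricellular corners, where the edges of neighbouring cells meet, and recruits tricellulin there. The electric organ is built of electrocytes, flat excitable cells derived from muscle and stacked in columns, whose currents add up along the stack.

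The 3 groups were compared in 1 edgeR quasi-likelihood fit with Benjamini-Hochberg adjustment over the 18489 gene models tested, and a gene was called at an adjusted p under 0.05 with a change of more than 1 on the log2 scale, up or down. Library totals were 12973350 to 19259304 counts in the hybrids, 12502114 to 13927972 in *rhy* and 8346577 to 11549622 in *com*. The sodium channel gene *SCN4AA*, which marks the electric organ of these fish, was at 2525 to 2986 CPM (counts scaled to the size of each library) in the hybrids. It was at 833 to 1072 CPM in *rhy* and 2623 to 4975 CPM in *com*, so the labelled tissue was present in every library. Of the potassium channel genes also read as markers, *KCNJ2* was at 342 to 455 CPM in the hybrids, 1534 to 2572 CPM in *rhy* and 110 to 374 CPM in *com*. *KCNA7A_1* was at 217 to 279 CPM in the hybrids, 23.7 to 43.4 CPM in *rhy* and 854 to 1151 CPM in *com*. The markers differed in direction between the species, so no amount of tissue was read from them. In 1 pattern, the one *LSR* has, comrhy63 was the hybrid most often apart from the other 4. In 296 gene models exactly 4 of the 5 hybrids lay above every parental fish. The hybrid that did not was comrhy63 in 119 of them, comrhy59 in 56, comrhy60 in 55, comrhy62 in 34 and comrhy61 in 32. Broader counts did not single out comrhy63. Among the hybrids, comrhy61 had the most gene models over 1 log2 unit below all the others (352, against 212 in comrhy63). The most above all the others were in comrhy60 (437, against 201 in comrhy63). Because *LSR* has the pattern counted first, its results are given with and without comrhy63.

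*CLDN11* was highest in *rhy*, lowest in *com* and in between in the hybrids. Its level was 65.2, 63.7, 57.9, 59 and 47.4 CPM in hybrids comrhy59 to comrhy63, against 131, 171, 161, 198 and 93.7 CPM in rhy49 to rhy53. In com104, com121, com123, com124 and com125 it was 23.5, 40.0, 28.4, 33.9 and 40.9 CPM. No fish of one group lay within the range of another. The gap between the lowest *rhy* and the highest hybrid was 1.44-fold, and that between the lowest hybrid and the highest *com* was 1.16-fold. Such an order without overlap was found in 1.67% of the gene models tested, and every *rhy* exceeded every *com* in 15.6%.

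**Figure D1:**
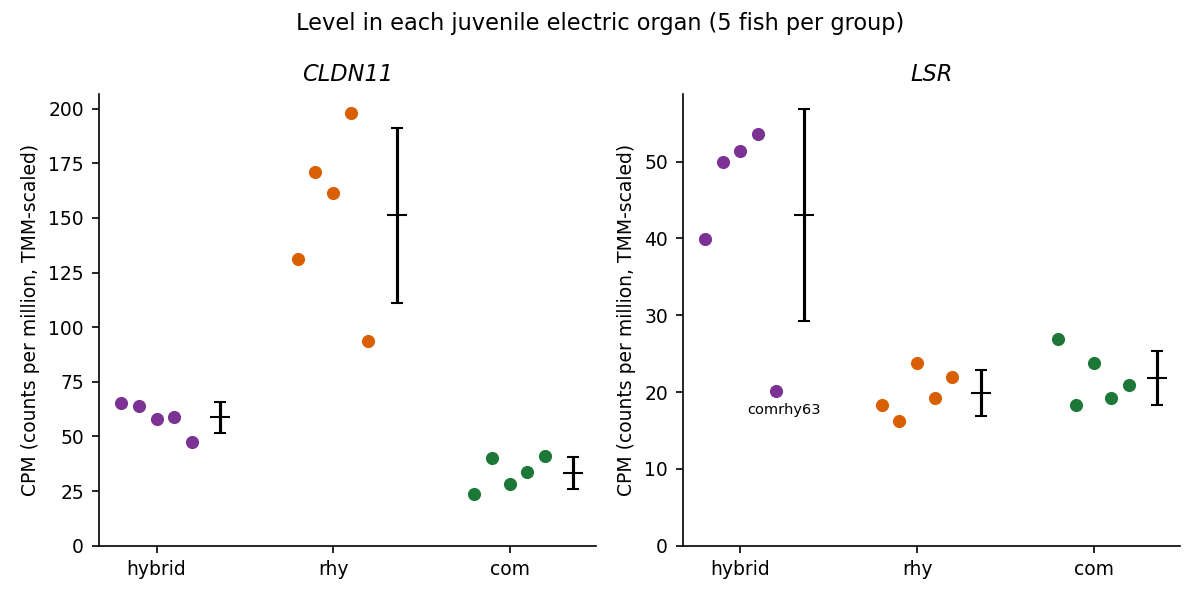
Level of *CLDN11* (left) and *LSR* (right) in CPM, TMM-scaled, in each of 5 hybrid, 5 *rhy* and 5 *com* juveniles. Points are single fish and bars are the mean and SD of a group. The *CLDN11* ranges of the 3 groups do not overlap, whereas *LSR* is at 40.0 to 53.7 CPM in 4 hybrids and at 20.1 CPM in comrhy63, within the parental range of 16.2 to 27.0 CPM.

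Group means of *CLDN11* were 58.7 ± 7.0 CPM in the hybrids, 151 ± 40.0 CPM in *rhy* and 33.3 ± 7.46 CPM in *com* (SD, n = 5 each). *CLDN11* was 4.53-fold higher in *rhy* than in *com* (95% interval 3.40 to 6.04; log2 fold change 2.18, SE 0.20, adjusted p = 3.85e-07 in edgeR). Of all gene models tested in that comparison 22.8% were called, with 9.75% called higher in *rhy* and 13.1% called lower. The study picked both genes with the help of these same libraries, together with adult ones, so the direction in juveniles is not independent evidence.

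In the hybrids *CLDN11* fell to 0.388 times the *rhy* level (95% interval 0.294 to 0.513; log2 fold change -1.37, SE 0.19, adjusted p = 9.04e-05 in edgeR). In that comparison 12.1% of the gene models were called, and 4.45% were called lower in the hybrids. Against *com* the hybrids had 1.76 times the level (95% interval 1.33 to 2.32; log2 fold change 0.81, SE 0.19). This passed the adjusted p (0.00610 in edgeR) but not the fold limit and so was not called. Among all gene models 11.1% passed that p as higher in the hybrids when no fold limit was set. The order *com*, hybrid, *rhy* with the adjusted p passed in all 3 pairwise comparisons was found in 2.77% of the gene models. The 3 pairwise comparisons share groups and are not independent of each other.

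**Figure D2:**
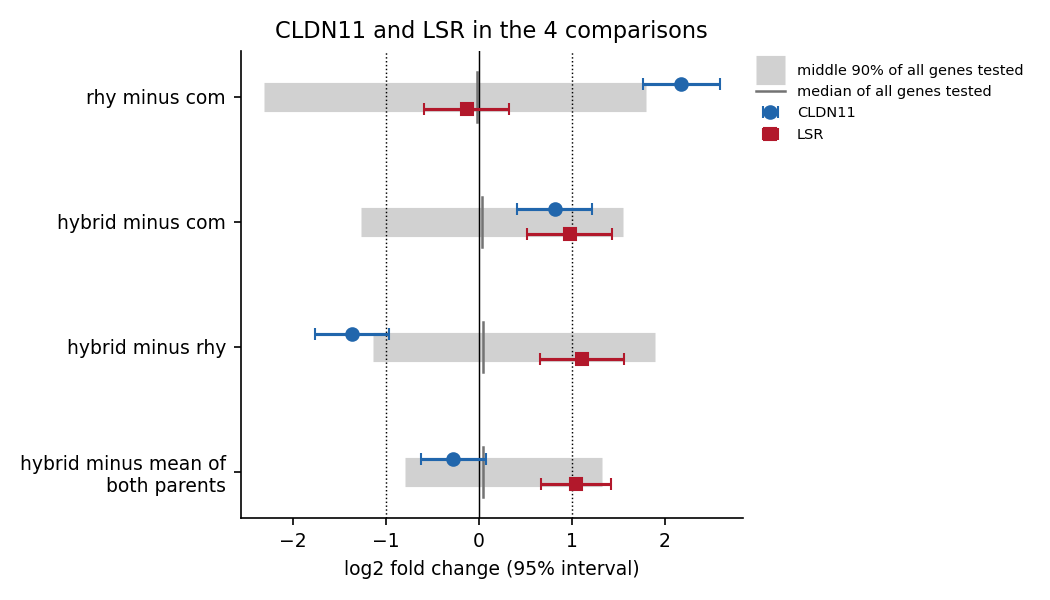
Log2 fold change of *CLDN11* (circles) and *LSR* (squares) with 95% interval in the 4 comparisons. Grey bars span the middle 90% of the log2 fold changes of all gene models tested, the short line is their median and dotted lines mark the fold limit. *CLDN11* lies outside the grey bar at 2.18 for *rhy* minus *com* and at -1.37 for hybrid minus *rhy*, whereas *LSR* is near 0 between the parents (-0.13) and at 1.05 for the hybrids against the mean of both parents.

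The hybrids lay 0.386 of the way, by log2 CPM, from the *com* mean (0) to the *rhy* mean (1), with an SE of 0.0660. On the linear scale the same position was 0.215 with an SE of 0.0476, nearer to *com*. The log2 difference of *CLDN11* between the hybrids and the parental average was -0.28 (95% interval -0.62 to 0.07, adjusted p = 0.289 in edgeR) and was not called, where 4.54% of the gene models were. The interval leaves room for a level below the midpoint by up to 0.62 on the log2 scale.

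Over all 5 hybrids *CLDN11* varied less between fish than *LSR*, and in both parental groups it varied more. The coefficient of variation of *CLDN11* was 11.9% in the hybrids, 26.5% in *rhy* and 22.4% in *com*. That of *LSR* was 32.1% in the hybrids (12.4% without comrhy63), 15.1% in *rhy* and 16.3% in *com*. Within *rhy* the lowest *CLDN11* was in rhy53 and the highest in rhy52. Counts of *CLDN11* ran between 212 and 2467 per library, so counting error was small beside its spreads. Markers of other tissues were read beside it. *TYRP1*, an enzyme of melanin synthesis, and *MST1R*, a receptor of epithelial cells, were summed. The sum was 2.0 to 5.29 CPM in the hybrids, 15.4 to 44.9 CPM in *rhy* and 0.134 to 1.62 CPM in *com*. Both genes were called higher in *rhy* than in *com*. *CLDN7*, a further epithelial marker that is counted here with the adhesion genes and not in this sum, was called lower in *rhy*. The endothelial genes *CD34* and *FGD5* summed to 129 to 225 CPM in the hybrids, 550 to 711 CPM in *rhy* and 76.1 to 105 CPM in *com*, with *CD34* called higher in *rhy*. *FGD5* alone averaged 74.0 CPM in the hybrids, 83.6 CPM in *rhy* and 48.2 CPM in *com*. In *rhy* against *com* its log2 fold change of 0.79 passed the adjusted p and missed the fold limit. It was not called in hybrids against *rhy* (-0.18), so the sum mostly follows *CD34*. The neural genes *GRIA3*, *DLGAP2* and *NKX2.2A* ran the other way, at 28.7 to 45.9 CPM in the hybrids, 10.6 to 14 CPM in *rhy* and 64.4 to 82.4 CPM in *com*. The leukocyte genes *LCP1* and *SIGLEC1* stayed at or below 2.44 CPM in every fish, and *LCP1* was at 0 in 4 of 5 *rhy*. The study placed *TYRP1* and *MST1R*, like *CLDN11*, among genes rising with EOD duration. It placed *CLDN7*, the neural genes and the leukocyte genes among those falling. These libraries went into that sorting, so the directions of those genes are not independent evidence. The part of other cell types in the *CLDN11* difference was not tested, and in whole tissue more cells that carry the transcript and more transcript per cell cannot be told apart.

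*LSR* followed another pattern: the parental ranges overlapped and 4 of 5 hybrids were above both. It was at 40.0, 49.97, 51.4, 53.7 and 20.1 CPM in comrhy59 to comrhy63, against 18.3, 16.2, 23.8, 19.3 and 22 CPM in rhy49 to rhy53. In com104, com121, com123, com124 and com125 it was 27.0, 18.3, 23.7, 19.2 and 20.9 CPM. The hybrids comrhy59 to comrhy62 exceeded all 10 parental fish, and comrhy63 lay among them. That 4 or 5 of 5 hybrids exceeded every parental fish was found in 2.48% of the gene models tested, and exactly 4 in 1.6%.

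Group means of *LSR* were 43.0 ± 13.8 CPM in the hybrids, 19.9 ± 3.0 CPM in *rhy* and 21.8 ± 3.55 CPM in *com* (SD, n = 5 each). Between the parents *LSR* was not called, at 0.913-fold in *rhy* relative to *com* (adjusted p = 0.646 in edgeR). The 95% interval of that fold, 0.664 to 1.25, still allows a modest difference either way. Against *rhy* the hybrids were higher by 1.11 on the log2 scale (2.16-fold, SE 0.21, adjusted p = 0.00133 in edgeR) and the gene was called, as were 7.64% of gene models in that direction. Against *com* they were higher by 0.98 (1.97-fold, 95% interval 1.44 to 2.71, adjusted p = 0.00433 in edgeR), which passed the adjusted p and stopped just short of the fold limit, in a comparison where 9.08% of gene models were called and 4.66% as higher. Both adjusted p-values passed with the hybrids above each parent in 280 gene models, 1.51% of those tested. The study, with the help of these libraries, placed *LSR* among genes falling with EOD duration. A higher level in hybrids than in *rhy*, whose juvenile EOD is longer, has the direction of that sorting and is not independent evidence. Between *com* and *rhy*, whose juvenile EODs also differ, *LSR* was not called.

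Against the mean of both parents, taken over log2 levels, *LSR* was 2.06-fold higher in the hybrids (log2 fold change 1.05, 95% interval 0.67 to 1.42, adjusted p = 0.00182 in edgeR), a call shared with 3.2% of the gene models in that direction. This call sat close to the fold limit: it was lost, with the adjusted p still passed, at a log2 fold change of 0.99 without comrhy60, 0.97 without comrhy61 and 0.95 without comrhy62. Without comrhy63 the log2 fold change was 1.23 against the mean of both parents, 1.29 against *rhy* and 1.16 against *com*, and then all of these were called. As comrhy63 was the lowest hybrid, leaving it out had to raise these values. It was not an outlier for *LSR* by the limit used below. Leaving out comrhy59 (1.004), com104 (1.07) or com123 (1.01) also took the *com* comparison over the fold limit.

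Exact permutation tests over fish, two-sided and on log2 CPM, gave p = 0.00794 for *CLDN11* in each of the 3 pairwise comparisons, the smallest value that 252 assignments of 5 against 5 allow (0.0159 after Benjamini-Hochberg adjustment over 6 tests). For *LSR* the exact permutation p was 0.0238 for hybrids against *rhy* (adjusted 0.0357), 0.0317 for hybrids against *com* (adjusted 0.0381) and 0.429 for *rhy* against *com*. For *CLDN11* that smallest value follows from ranges that do not overlap. The test was chosen after they were seen, so it adds nothing to them. By mean the order of the groups for *CLDN11* was *rhy*, hybrid and *com*. In edgeR the adjusted p passed in all 3 comparisons, and hybrids against *com* missed the fold limit. For *LSR* the order was hybrid, *com* and *rhy*, where the last 2 did not differ beyond their spread.

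The spread of *LSR* within the hybrids came from comrhy63. The coefficient of variation was 32.1% over the 5 hybrids, 15.1% in *rhy* and 16.3% in *com*. Without comrhy63 the other 4 hybrids averaged 48.7 ± 6.03 CPM (SD, n = 4), a coefficient of variation of 12.4%, and were 2.42 times as high as comrhy63. The count of *LSR* in comrhy63 was 403, against 546 to 906 in the other hybrids, so the lower level does not rest on a few reads. In the same fish *CLDN11* was the lowest of the hybrids, at 47.4 CPM against 57.9 to 65.2 CPM. Of the marker sums, comrhy63 had the highest skin (5.29 CPM) and endothelial (225 CPM) and the lowest neural (28.7 CPM) value among hybrids. The first 2 came from *TYRP1* (5.09 CPM) and *CD34* (157 CPM). In comrhy63 *MST1R* (0.200 CPM), *CLDN7* (2.0 CPM) and *FGD5* (68.5 CPM) lay within the range of the other hybrids. The neural gene *GRIA3* was lower in comrhy59 (17.4 CPM) than in comrhy63 (19.1 CPM). The part of other cell types in the *LSR* level of comrhy63 was not tested.

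The pair was also set side by side per transcript length, in TPM (abundance scaled for transcript length and library), the scale on which levels of different genes can be compared. *CLDN11* was at 64.6 ± 8.20 TPM in the hybrids, 164 ± 41.3 TPM in *rhy* and 33.0 ± 7.44 TPM in *com* (SD, n = 5 each). *LSR* was at 24.5 ± 8.50 TPM in the hybrids, 11.1 ± 1.79 TPM in *rhy* and 11.2 ± 1.82 TPM in *com*. *CLDN11* was thus the more abundant transcript in every group and every fish. The TPM ratio of *CLDN11* to *LSR* was 2.14 to 4.58 in the hybrids (median 2.49), 8.30 to 20.6 in *rhy* (median 13.9) and 1.69 to 4.22 in *com* (median 3.41). The ratio of every *rhy* exceeded that of every other fish, while the ranges of hybrids and *com* overlapped.

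**Figure D3:**
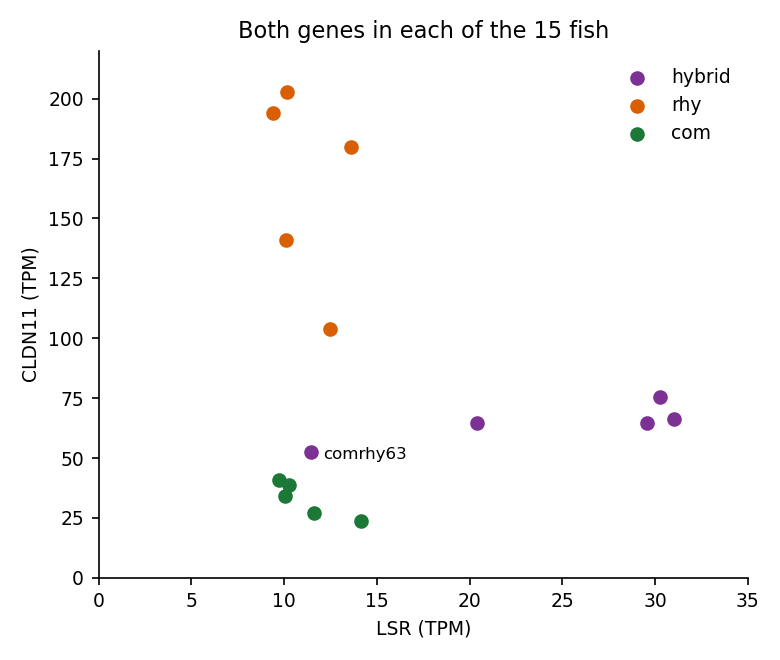
*CLDN11* against *LSR*, both in TPM, in each of 15 juveniles (5 hybrid, 5 *rhy*, 5 *com*). The *rhy* fish differ from *com* along the *CLDN11* axis (164 against 33.0 TPM on average) with overlapping *LSR* levels, 4 hybrids lie to the right of all parents, and comrhy63 lies at the parental *LSR* level.

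Ranked by TPM within a library, *CLDN11* stood at percentile 87.3 to 90.5 of the gene models above 0 TPM in that library in the hybrids, 92.6 to 96.9 in *rhy* and 75.6 to 85.0 in *com*. *LSR* stood at percentile 61.3 to 79.5 in the hybrids, 52.1 to 63.2 in *rhy* and 57.9 to 66.0 in *com*. Across the 15 fish the Pearson correlation of their log2 CPM was -0.19, a description over libraries of 3 groups.

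Other genes of cell adhesion and of the extracellular matrix that the study names were read from the same fit. Of 11 such genes 10 could be tested, and *TENM2*, a teneurin of synaptic adhesion, had too few counts. In *rhy* against *com* 7 of the 10 were called lower and 0 higher, with a median log2 fold change of -2.09 beside -0.02 over all gene models. At an unadjusted p under 0.05, edgeR and DESeq2 each had 8 lower and 0 higher. The study chose these genes with the help of these libraries too, so the count is a description, to be read beside the 13.1% of gene models called lower. *CLDN11* differed in the opposite direction from most of the list. The study had placed *CLDN11* among genes rising with EOD duration and most of the list among genes falling with it. That contrast was thus largely set by how the genes were picked.

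The other claudin on the list was *CLDN7*, a claudin of epithelial tight junctions. It was at 2.49, 4.82, 1.35, 4.26 and 2.0 CPM in comrhy59 to comrhy63, against 0.225, 1.21, 0.491, 0.161 and 1.03 CPM in rhy49 to rhy53. In com104, com121, com123, com124 and com125 it was 3.29, 5.14, 1.34, 2.44 and 1.77 CPM. Every *rhy* lay below every hybrid and every *com*, whose ranges overlapped. The share of all gene models with such an order was not worked out. The log2 fold change of *CLDN7* was -2.15 in *rhy* against *com* (SE 0.54, adjusted p = 0.00429) and 2.23 in hybrids against *rhy* (SE 0.54, adjusted p = 0.00575), both called in edgeR, and 0.08 in hybrids against *com* (SE 0.49, adjusted p = 0.922). Between the parents the claudins went in opposite directions, *CLDN11* higher and *CLDN7* lower in *rhy*. The study, with the help of these libraries, had placed *CLDN11* among genes rising with EOD duration and *CLDN7* among those falling. Their opposite directions are thus no separate result. *CLDN7* rested on 2 to 87 counts per library, far fewer than *CLDN11*.

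**Figure D4:**
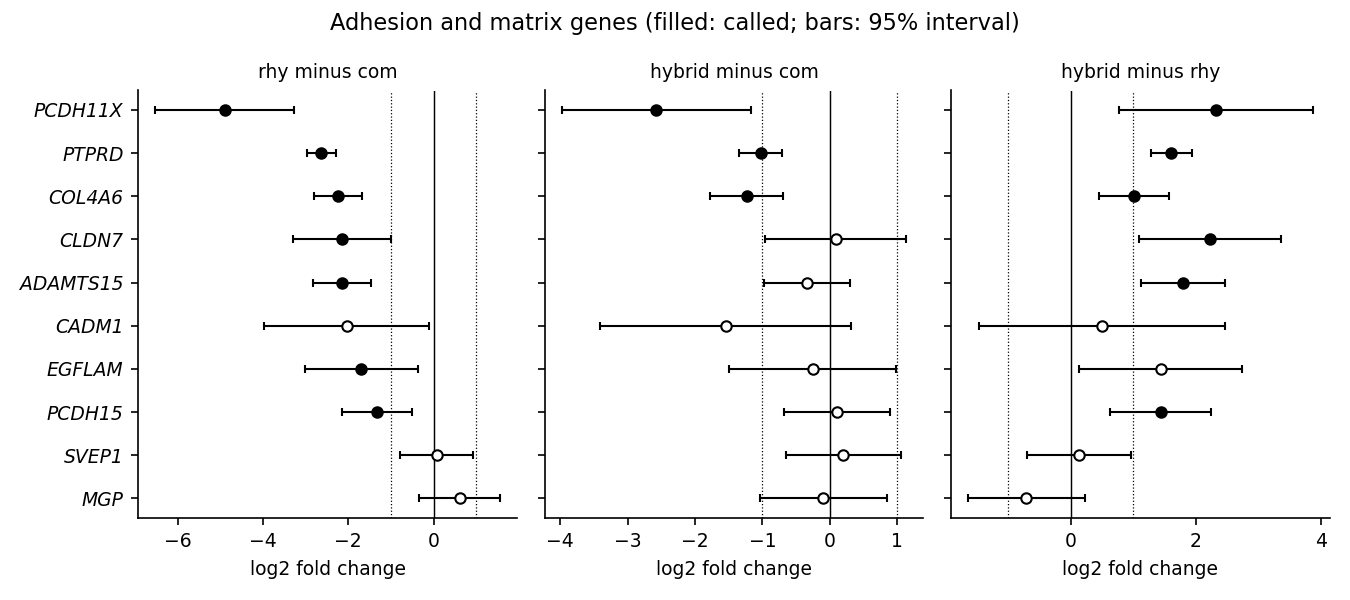
Log2 fold change with 95% interval of the 10 tested adhesion and matrix genes in *rhy* minus *com*, hybrid minus *com* and hybrid minus *rhy*. Filled points were called and dotted lines mark the fold limit. In *rhy* minus *com* 7 genes are called, all lower (13.1% of all gene models), and in hybrid minus *rhy* 6 are called, all higher (7.64% of all gene models). The study, with the help of these libraries, had placed the called genes among those falling with EOD duration.

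*PTPRD*, a receptor tyrosine phosphatase of synaptic adhesion, was at 19.5 ± 2.08 CPM in the hybrids, 6.40 ± 1.49 CPM in *rhy* and 39.7 ± 5.91 CPM in *com* (SD, n = 5 each). It was called in all 3 pairwise comparisons, with log2 fold changes of -2.63 in *rhy* against *com*, 1.61 in hybrids against *rhy* and -1.02 in hybrids against *com*. *COL4A6*, a collagen chain of basement membranes, had the same order, at 2.52 ± 0.645 CPM in the hybrids, 1.26 ± 0.427 CPM in *rhy* and 5.96 ± 1.37 CPM in *com*. *PTPRD* and *COL4A6* thus placed the hybrids between the parents as *CLDN11* did, with *com* at the top in place of *rhy*. The protocadherin *PCDH11X* was called in the same 3 comparisons, at -4.89 in *rhy* against *com*, 2.32 in hybrids against *rhy* and -2.57 in hybrids against *com*.

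*ADAMTS15*, a protease of matrix proteoglycans, and *PCDH15*, a protocadherin of hair cell tip links, were called lower in *rhy* than in *com*, with log2 fold changes of -2.14 for *ADAMTS15* and -1.33 for *PCDH15*. Both were called higher in hybrids than in *rhy*, at 1.80 for *ADAMTS15* and 1.44 for *PCDH15*, and neither was called between hybrids and *com*. *EGFLAM*, which encodes pikachurin of the dystroglycan-linked matrix, was called in edgeR in *rhy* against *com*, at -1.69, and not in hybrids against *rhy* (1.44, adjusted p = 0.0902 in edgeR), where DESeq2 and limma on log2(TPM + 0.1) called it. The immunoglobulin-type adhesion gene *CADM1* (-2.04, adjusted p = 0.0802 in edgeR), the secreted matrix gene *SVEP1* (0.07) and the matrix Gla protein gene *MGP* (0.61) were not called in *rhy* against *com*.

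In hybrids against *com* 3 of the 10 genes were called lower and 0 higher, where 4.42% of gene models were called lower. At an unadjusted p under 0.05 edgeR and DESeq2 again had 3 lower and 0 higher. Hybrids against *rhy* had 6 called higher and 0 lower, where 7.64% of gene models were called higher. The median log2 fold change was 1.44 beside 0.05 over all gene models, with 7 higher and 0 lower at an unadjusted p under 0.05. The study, with the help of these libraries, had placed the called genes among those falling with EOD duration, which is longer in juvenile *rhy*. Their direction was thus largely set by how they were picked. No share over all gene models was worked out at an unadjusted p, so the unadjusted counts of the list are a description only. In hybrids against *rhy* DESeq2 called 7 higher and limma on log2(TPM + 1) called 3, and in hybrids against *com* DESeq2 called 3 lower and limma 1. Against the mean of both parents 0 of the 10 were called by edgeR and DESeq2, where edgeR called 3.2% of gene models higher. At an unadjusted p under 0.05 each had 4 higher and 0 lower in that comparison. The largest log2 fold change of the list in that comparison was that of *CLDN7*, at 1.16 (SE 0.42, adjusted p = 0.0818 in edgeR). The change of *LSR* was no larger (1.05, SE 0.18) and rested on more counts, so its size in that comparison does not set it apart from *CLDN7*. Against *com* alone *CLDN7* was at 0.08 in the hybrids (adjusted p = 0.922 in edgeR). *LSR* was at 0.98 there (adjusted p = 0.00433 in edgeR), short of the fold limit. *LPL*, the lipoprotein lipase that acts on the same particles as the lipoprotein receptor, was at 93.4 ± 22.6 CPM in the hybrids, 106 ± 20.2 CPM in *rhy* and 106 ± 21.6 CPM in *com*. Its log2 fold change was 0.01 in *rhy* against *com*, -0.19 in hybrids against *rhy* and -0.18 in hybrids against *com*, and it was called in none of them.

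Gene models on the same contigs, as read from the identifiers, were looked at next. The contig of *CLDN11* holds 4 other models, of which 3 were tested. Their log2 fold changes in *rhy* against *com* were -0.72, -0.36 and 0.63, and 0 of 3 were called by edgeR, beside 22.8% of all gene models. Those at -0.72 and -0.36 passed the adjusted p (0.0298 and 0.0159 in edgeR) and missed the fold limit. With 3 models no reading on the contig can be drawn. Of the 3, maker-ptg001737l-snap-gene-0.20 was called lower in hybrids than in *com* (log2 fold change -1.002, adjusted p = 0.0103 in edgeR), opposite in sign to *CLDN11*. Of all gene models 4.42% were called lower there. The long contig of *LSR* holds 332 other models, of which 169 were tested. Against the mean of both parents 13 of the 169 were called higher in the hybrids and 2 lower, 8.88% in all beside 4.54% over all gene models, and the median log2 fold change of the 169 was 0.08 beside 0.04. In *rhy* against *com* 22.5% of the 169 were called, beside 22.8% over all gene models. The share was 10.7% beside 9.08% in hybrids against *com* and 14.8% beside 12.1% in hybrids against *rhy*. Whether this contig differs from the rest was not tested.

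The gene models whose pattern was most like each member were ranked by Pearson r of log2 CPM over the 15 libraries. For *CLDN11* 285 models had an r above 0.9. The nearest, maker-ptg001120l-snap-gene-3.16 (r = 0.973), was at 11.8 CPM in the hybrids, 50.2 CPM in *rhy* and 7.87 CPM in *com* on average, and the next, maker-ptg000253l-augustus-gene-60.5 (r = 0.967), at 143 CPM in the hybrids, 260 CPM in *rhy* and 95.8 CPM in *com*. Neither is given a gene name here, and maker-ptg000253l-augustus-gene-60.5 lies on the contig of *LSR* by its identifier. The 15 points fall into 3 groups, whose means had the same order in these models as in *CLDN11*.

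For *LSR* only 6 models had an r above 0.9. The 5 nearest were picked for their likeness to *LSR* over these same libraries. A low comrhy63 in them follows from that choice and is no separate evidence on that fish. By Spearman rho these 5 ranked 24 to 385, and 0 models had a rho above 0.9. The nearest, maker-ptg000294l-snap-gene-3.15 (r = 0.946), had 26 to 64 counts in comrhy59 to comrhy62, 0 counts in comrhy63 and 0 counts in all 10 parental fish. The next, maker-ptg000915l-snap-gene-0.27 (r = 0.944), had 19 to 30 counts in the same 4 hybrids, 0 counts in comrhy63, 0 counts in every *rhy* and 0 to 3 counts in *com*. Over the 5 models the counts were 19 to 205 in those 4 hybrids and 0 to 4 in comrhy63. Unlike them, *LSR* had a clear level in every fish, with 165 counts or more. No gene of the adhesion list was near it, the highest r being that of *PCDH15* at 0.575.

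**Figure D5:**
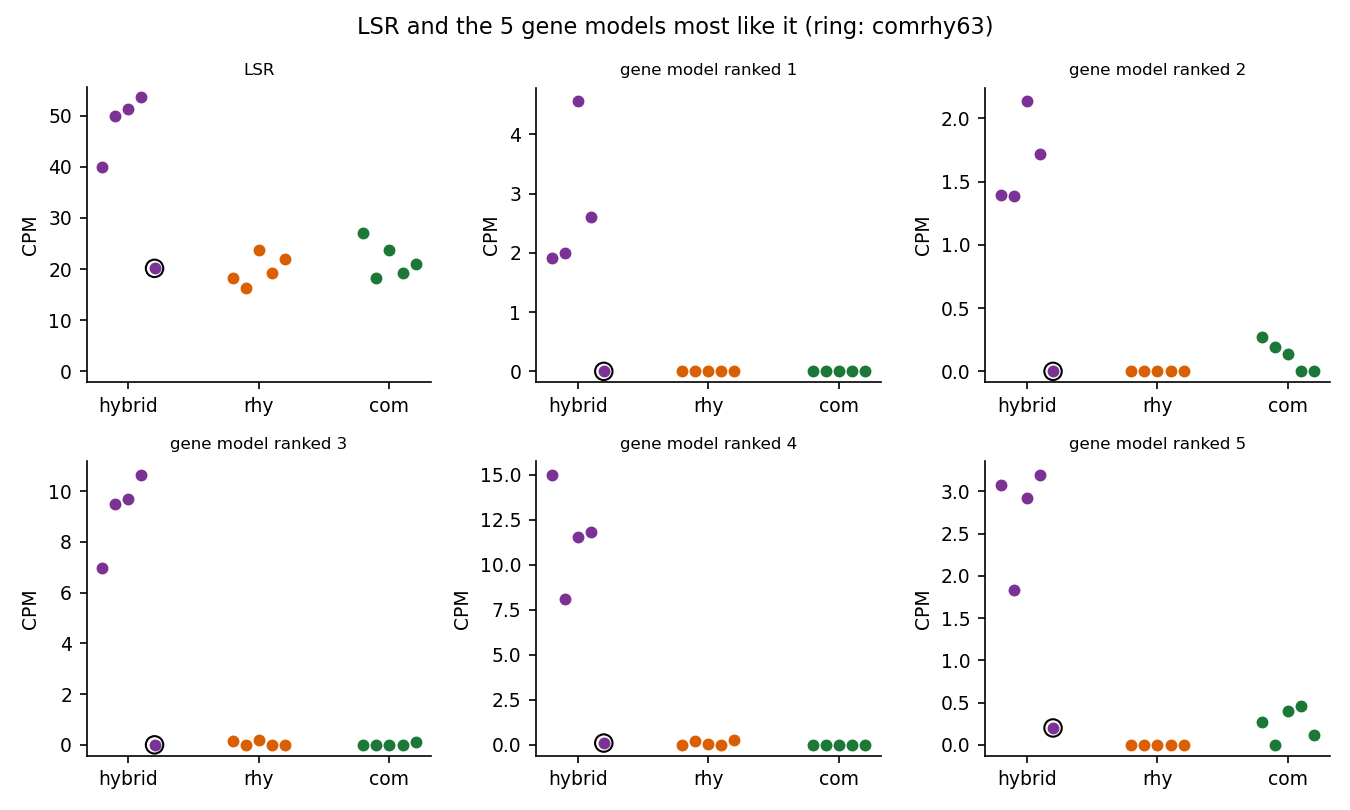
CPM of *LSR* and of the 5 gene models most like it in each fish of the 3 groups, with comrhy63 ringed. In the 5 models the 4 other hybrids carry 19 to 205 counts per library and comrhy63 carries 0 to 4, near the parental fish, whereas *LSR* is at 16.2 CPM or more in every fish.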

How the data were processed

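The electric organs of 15 juvenile fish were sequenced, with poly(A)-selected, strand-specific libraries, 1 per fish. Trimmomatic (version 0.39) was used by the authors for trimming. Reads of all 3 groups were mapped to the genome of *C. compressirostris*, and RSEM counted them per gene model. The aligner is not given in the sources used here. A difference in mapping between the species cannot be told apart from one in expression. The deposited expected counts by RSEM, which the authors did not normalize, were rounded to whole numbers, and for *CLDN11* and *LSR* they were whole in 15 of 15 libraries. The TPM that the authors deposited, scaled by RSEM for effective length and library, were used for levels between genes and for alternatives.

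A gene model was tested where 2 or more libraries had over 10 counts, as in the study's methods, which left 18489 of the 27561 with any count. After TMM scaling, edgeR (version 4.0.16, under R 4.3.3) was run with the quasi-likelihood test, a coefficient per group over all 15 libraries, and Benjamini-Hochberg adjustment. CPM are TMM-scaled, and log2 CPM for correlations used a prior count of 2. Alternatives were DESeq2 (version 1.42.0), limma (version 3.58.1) on log2(TPM + 1) and log2(TPM + 0.1), other scalings and filters, only the groups compared, no fold limit, each fish left out, and an exact permutation test chosen after seeing the data. Of these steps the edgeR fit was tested on simulated counts, read in *rhy* against *com* and in hybrids against *com*. Summaries and plots were made in Python 3.11.15 with pandas 2.3.3, numpy 2.4.6, scipy 1.17.1 and matplotlib 3.10.9.

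The members, lists and tests were chosen with earlier results of these data known. The genes named are *CLDN11*, *LSR*, the listed genes of adhesion, lipoprotein, tissue and other cell types, at most 2 of the 5 models most like each member, and at most 2 models per direction on the same contig. Gene names come from the study's tables, matched by identifier. Libraries of a group were no copies of each other, with chi-square values of 20.4 to 141 per degree of freedom between their counts. Genes were counted per model, and reads shared with near-identical copies were not resolved here.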

Additional observations from a re-analysis of the deposited data

Results flagged for a closer look

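For the 2 genes themselves no fish lay far enough from the others of its group to be singled out, and the low *LSR* level of comrhy63 fell short of the limit used, with a gap to the next hybrid of 0.593 of the group's range. Among the other listed genes single fish did stand out. Over the 72 pairs of gene and group checked 10 were flagged, where chance alone gives about 1 in 20. *CADM1* and *LCP1* among these had few counts. In the adhesion list, *CADM1* was at 0.754 CPM in rhy53 (0 to 0.210 CPM in the other *rhy*), *PCDH11X* at 16.4 CPM in comrhy62 (3.40 to 5.88 CPM in the other hybrids) and at 3.77 CPM in rhy50 (0.421 to 1.10 CPM in the other *rhy*). *COL4A6* was at 3.65 CPM in comrhy63 (2.05 to 2.44 CPM in the other hybrids) and *MGP* at 37.5 CPM in rhy50 (12.9 to 18.5 CPM in the other *rhy*).

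Of the genes of the electric organ, com104 had the highest levels in its group, with *SCN4AA* at 4975 CPM (2623 to 3301 CPM in the other *com*) and *KCNJ2*, an inward rectifier potassium channel, at 374 CPM (110 to 175 CPM in the other *com*). Of the genes of other cell types, *LCP1* was at 0.0803 CPM in rhy52 (1 count, and 0 in the other *rhy*), *FGD5* at 93.1 CPM in comrhy61 (66.5 to 72.8 CPM in the other hybrids) and *DLGAP2* at 9.44 CPM in comrhy63 (16.6 to 17.9 CPM in the other hybrids).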

How the results depend on the processing

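No comparison of *CLDN11* or *LSR* changed direction under any alternative run. With each fish left out in turn, the log2 fold change of *CLDN11* was 2.06 to 2.31 in *rhy* against *com*, -1.497 to -1.24 in hybrids against *rhy*, 0.71 to 0.90 in hybrids against *com* and -0.34 to -0.21 against the mean of both parents, with the same calls. That of *LSR* was 0.89 to 1.16 in hybrids against *com* and 0.95 to 1.23 against the mean of both parents, crossing the fold limit as given above, 1.02 to 1.29 in hybrids against *rhy* and -0.20 to -0.04 in *rhy* against *com*. Hybrids against *com* were called for *LSR* without the filter (1.001), with log2(TPM + 0.1) in limma (1.05) and without the fold limit (0.98), and for *CLDN11* without the fold limit (0.81). The adhesion genes called with log2(TPM + 1) in limma were 1 in hybrids against *com* (3 in edgeR) and 3 in hybrids against *rhy* (6 in edgeR, and 7 in DESeq2), and against the mean of both parents 0 to 1 were called with a fish left out (1 without com121). The hybrids' *CLDN11* position was 0.215 on the linear scale. Of the 5 models most like each gene by Pearson r, 1 for *CLDN11* and 0 for *LSR* were also among the 5 by Spearman rho.

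TPM moved the median log2 fold change of all gene models, with log2(TPM + 0.1), to 0.20 in hybrids against *com* (0.03 in edgeR) and 0.14 in *rhy* against *com* (-0.02 in edgeR), and the calls with it, to 1275 higher and 585 lower (861 and 817 in edgeR) and 2405 higher and 1989 lower (1802 and 2421 in edgeR). Against the mean of both parents 520 gene models were called with log2(TPM + 1), beside 839 in edgeR. The most abundant gene took 3.63% (com104) to 19.3% (com121) of the counts of a library in *com*. In *rhy* it took 2.64% to 5.18% and in the hybrids 4.38% to 5.89%. The TPM had no TMM scaling, and the part of that share in the *com* levels by TPM was not tested. No paired analysis was possible because the fish numbers in the labels are not shared between groups. *CADM1*, *EGFLAM* and *SVEP1* had few counts, and their intervals were wide.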
